A study of Mus musculus with 7 samples.

Results

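The regions described here are 739 stretches of mouse chromatin that 4 of 7 ATAC-Seq libraries called as open and the other 3 did not. ATAC-Seq cuts accessible DNA with a transposase and sequences the fragments, and a peak is a stretch where cuts pile up over the local background. The autosomal peaks of the 7 libraries were merged where they shared at least 1 bp, which gave 172227 regions. Those with a peak in WTAkita replicates 3 and 4 and in Ctrl replicates 2 and 3, and with none in WTAkita replicates 1 and 2 and Ctrl replicate 1, were kept. They make up 0.429% of all merged regions. They were chosen by the calls of all 7 libraries, so those calls, the fold enrichments and the peak p-values are given as a description, without a test. In the text, "the 4 libraries" are those that called them and "the 3 libraries" are those that did not.

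The study asked how diabetes in pregnancy changes blood formation in the grown offspring. Each library was made from nuclei of 50000 sorted LSK cells (Lineage-, c-Kit+, Sca-1+), the bone marrow fraction that holds blood stem cells and multipotent progenitors. The 4 WTAkita libraries came from wild-type adult offspring born to a diabetic pregnancy, in a model in which the mother carries the Akita mutation of the insulin gene Ins2. The 3 Ctrl libraries came from wild-type adult offspring of normal pregnancies, and both groups were of the labelled strain C57/BL6. By the study's methods, Ins2 Akita/+ females and their wild-type sisters were fed a high-fat diet before mating with C57BL/6 males, so this diet is shared by both groups, and all offspring used lack the mutation. The number of mice behind a library and whether libraries share a litter were found in none of the sources, so p-values measure only the spread between these libraries, which may be technical. An LSK gate is a mixture, and a weak site can be open in few cells or slightly open in many, which these data cannot tell apart.

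Most of the genome is wrapped around nucleosomes, and transcription factors open short windows in it at promoters, which lie at the start of genes, and at enhancers, which may lie far from them. Promoters rich in CG dinucleotides are open in most cell types. Distal sites are more often specific to a cell type, and in blood progenitors many of them carry motifs for RUNX, ETS, GATA and AP-1 factors. A peak caller such as MACS2 turns this graded signal into a yes or no by a threshold, so a site close to the threshold can be called in some libraries and not in others.

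The first sequences are from the strongest of the 739 regions, that is, those with the highest mean percentile of fold enrichment in the 4 libraries. They are shown because they stood out most from the local background in the libraries that called them. Each line holds the 121 bases centred on the mean summit of the 4 libraries, on the plus strand of the RefSeq copy of GRCm38.p6 (mm10). Capitals mark a match to a motif searched for, on either strand. These are AP-1 (TGANTCA) at Otud7a and Rspry1, GATA letters (AGATAA) and HOX-PBX (TGATTTAT) at Zfp644, RUNX (TGTGGT) at Grm8, and PU.1 and other ETS (GAGGAA) at Mef2c. Those of Zfp644 and Grm8 are on the minus strand, so the line shows their reverse complement. The Rsrc1 window held none of the motifs searched for and opens with a CA repeat.
Rsrc1, chr3:67073755-67073875: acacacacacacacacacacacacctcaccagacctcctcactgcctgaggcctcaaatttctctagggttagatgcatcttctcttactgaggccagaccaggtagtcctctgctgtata
Otud7a, chr7:63335243-63335363: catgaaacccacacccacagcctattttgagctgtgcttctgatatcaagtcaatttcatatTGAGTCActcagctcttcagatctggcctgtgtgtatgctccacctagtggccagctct
Rspry1, chr8:94658121-94658241: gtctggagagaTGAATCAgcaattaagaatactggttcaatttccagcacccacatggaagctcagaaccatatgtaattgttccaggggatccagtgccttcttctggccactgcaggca
Zfp644, chr5:106649509-106649629: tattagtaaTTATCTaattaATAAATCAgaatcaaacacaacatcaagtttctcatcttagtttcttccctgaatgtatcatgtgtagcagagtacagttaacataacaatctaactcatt
Grm8, chr6:27360512-27360632: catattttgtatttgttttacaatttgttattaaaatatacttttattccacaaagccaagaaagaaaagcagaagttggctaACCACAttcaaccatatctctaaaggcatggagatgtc
Mef2c, chr13:83020891-83021011: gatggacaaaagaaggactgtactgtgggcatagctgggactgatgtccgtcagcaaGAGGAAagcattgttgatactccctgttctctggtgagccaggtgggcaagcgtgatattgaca

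A second set is shown because it lies within 1000 bp of the start site of a protein-coding gene, which few of the 739 regions do. Capitals mark MEIS letters (TGACAG) at Akap11 and RUNX on the minus strand at Txnrd2.
Akap11, chr14:78510803-78510923: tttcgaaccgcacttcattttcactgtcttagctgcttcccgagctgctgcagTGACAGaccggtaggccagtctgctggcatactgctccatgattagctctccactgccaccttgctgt
Txnrd2, chr16:18470851-18470971: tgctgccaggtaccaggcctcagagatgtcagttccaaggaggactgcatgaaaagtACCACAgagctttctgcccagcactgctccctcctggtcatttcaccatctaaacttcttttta

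All 7 libraries carried the marks of LSK cells. The 8 stem and progenitor markers checked (Kit, Ly6a, Cd34, Flt3, Gata2, Meis1, Mecom and Myb) had a peak within 1000 bp of the start site in every library, at fold enrichments of 6.42 to 15.8. Of 8 genes of mature lineages that the gate should leave out, Ms4a1 and Cd8a had none, Ly6g had one in WTAkita replicate 3 alone, and the other 5 had one in all 7 libraries, with 3.53 (Cd3e) the lowest. None of the 739 regions lay within 1000 bp of the start site of any of these 16 markers. The libraries differed in the median fold enrichment of their peaks, which was 5.26, 5.77, 6.32 and 6.58 in WTAkita replicates 1 to 4 and 5.79, 6.48 and 6.47 in Ctrl replicates 1 to 3. The 3 libraries that did not call the regions are the lowest of the 7 by this measure. They were set apart as the libraries of lower enrichment, so this order belongs to the choice and is not a result. The 3 libraries are not the shallowest. An estimate from the background level gave 49300000, 53100000 and 47800000 tags in WTAkita 1, WTAkita 2 and Ctrl 1, against 40500000, 44800000, 51900000 and 37600000 in WTAkita 3, WTAkita 4, Ctrl 2 and Ctrl 3.

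The set of libraries that defines the 739 regions was the most frequent one of its size. In all, 7446 regions were called in exactly 4 libraries, and the 739 are 9.92% of them. The next most frequent set of 4, WTAkita 3 and 4 with Ctrl 1 and 2, had 513 regions, and the least frequent, WTAkita 1 and 2 with Ctrl 1 and 3, had 54. The reverse pattern, a call in the 3 libraries and none in the 4, was found for 184 regions. Of the 115559 regions called in all of the 4 libraries, 105631 were also called in all of the 3, 6687 in 2 of them, 2502 in 1 and 739 in none. WTAkita replicate 1 alone missed 3467 of them, WTAkita replicate 2 alone missed 1520 and Ctrl replicate 1 alone missed 1700. The 739 regions are thus the last step of a graded count. WTAkita replicate 1, the lowest of the 3 in median fold enrichment (5.26), missed the most regions alone. WTAkita replicate 2 (5.77) missed fewer alone than Ctrl replicate 1 (5.79). The part of enrichment in the missing calls was not tested.

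The 739 regions were weak sites in the libraries that called them. The deposited fold enrichment is the tag pileup at the summit over the local background, each with 1 added. Over the 739 regions its median was 3.53 in WTAkita 3, 3.66 in WTAkita 4, 3.48 in Ctrl 2 and 3.49 in Ctrl 3. For all regions called in the same libraries it was 6.59, 6.92, 6.77 and 6.84, in the same order. The 739 sat at a median percentile of 19.6, 19.6, 19.1 and 17 within each library. The median pileup was 15, 17, 19 and 15 tags, while 8 to 10 tags over an average background were enough for a p-value of 0.01, the threshold of the authors. The median −log10 p was 6.46, 7.21, 7.02 and 6.14, so the typical region was well past that threshold in all of the 4. In 315 regions the −log10 p was at least 5 in every one of the 4 libraries, and in 106 it was under 3 in at least 1. The 4 libraries were close to each other in all of these measures. The mean fold enrichment over the calling libraries had a median of 3.56 in the 739 regions, against 3.18 in the 6707 other regions called in exactly 4 libraries, 2.77 in the 184 of the reverse pattern and 8.29 in those called in all 7. Taken over the 4 libraries, it was 3.71 and 3.96 in regions that 1 or 2 of the 3 also called.

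**Figure D1:**
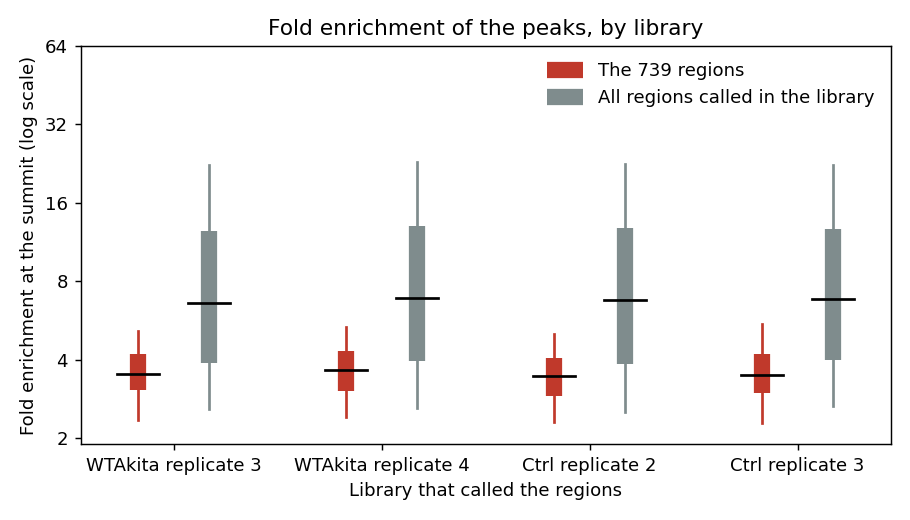
Fold enrichment at the summit (log axis) in the 4 libraries that called the 739 regions, for those regions (red) and for every region the library called (grey). Black lines are medians, thick bars run from percentile 25 to percentile 75 and thin lines from percentile 5 to percentile 95; the medians of the 739 regions lie between 3.48 and 3.66, below percentile 25 of all regions in each library.

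The values next to the threshold were as follows. Just inside, a region near Tlnrd1 had its weakest call in Ctrl replicate 3, with 9 tags and a −log10 p of 2.05. A region near Igll1, a surrogate light chain gene of B cell precursors, had its weakest call in Ctrl replicate 2, with 12 tags and a −log10 p of 2.1. Just outside, a region near Ror2 was called in the 4 libraries and, among the 3, in WTAkita replicate 2 alone, with 10 tags and a −log10 p of 2.02. A region near Ugcg was kept out by a single call in Ctrl replicate 1 with 18 tags and a −log10 p of 2.02. The calls on both sides of the rule were thus of 9 to 18 tags. More generally, where exactly 1 of the 3 libraries did call a region along with the 4, its peak there had a median fold enrichment of 3.03 in WTAkita 1, 3.23 in WTAkita 2 and 3.31 in Ctrl 1, and a median pileup of 15, 18 and 16 tags. A library without a call has no value in these files, so how far below the threshold the 3 libraries were at the 739 regions is not known.

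Their peaks were also narrow. No deposited peak was narrower than 250 bp in any library. The median width of the peaks in the 739 regions was 286 bp in WTAkita 3, 287 bp in WTAkita 4, 287 bp in Ctrl 2 and 282 bp in Ctrl 3, against 412, 416, 421 and 423 bp for all peaks. Between 60.5% and 65.8% of them were 250 to 299 bp wide, against 16.9% to 18.3% of all peaks in the same 4 libraries. At least 1 of the 4 peaks was under 300 bp in 688 of the 739 regions (93.1%) and all 4 in 187 (25.3%). Of the regions called in all 7 libraries, 10.7% had a peak under 300 bp in the 4 libraries and 0.512% had all 4 under it. The merged regions had a median width of 338 bp, close to the 347 bp of other regions called in exactly 4 libraries, and well below the 618 bp of those called in all 7. The width of a peak and its height come from the same pileup as the call, so width is no separate line of support. The summits of the 4 libraries were spread over a median of 39 bp in the 739 regions and over 21 bp in the regions called in all 7, so these weak sites were placed less sharply.

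**Figure D2:**
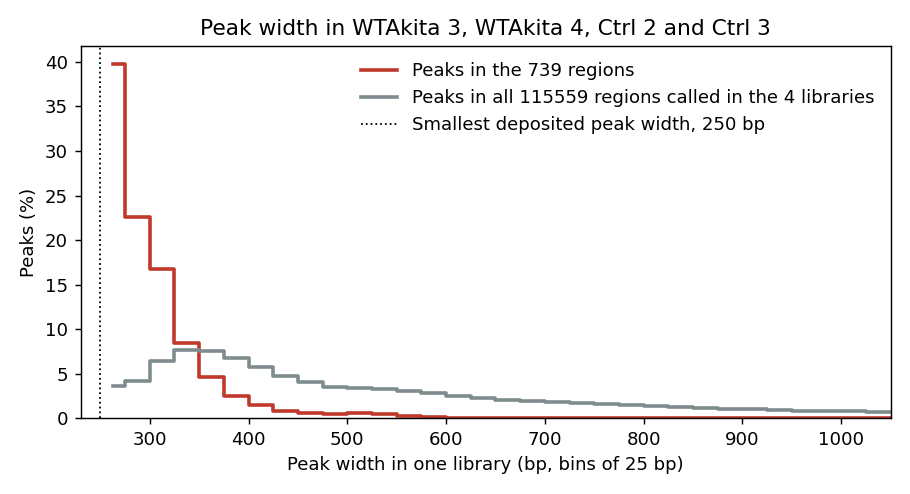
Width of single peaks in bins of 25 bp, as a share of the peaks of the 739 regions (red) and of all 115559 regions called in the 4 libraries (grey). The lowest bin, 250 to 274 bp, holds 39.8% of the peaks of the 739 regions and 3.66% of those of all 115559 regions, next to the smallest deposited width of 250 bp (dotted line).

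The place of a region was not used to choose it. The 739 regions lay away from promoters. Only 51 of them (6.9%, exact 95% binomial interval 5.18 to 8.97%) were within 1000 bp of an annotated start site, against 20.1% of all regions, 12.5% of the other regions called in exactly 4 libraries, 23.9% of the reverse pattern (17.9 to 30.7%) and 25.3% of the regions called in all 7. These intervals cover counting error over regions, which are not replicates of a condition. Regions called in the 4 libraries and in 1 or 2 of the 3 had shares of 9.87% and 10.5%, so much of this place is shared with them. For the start sites of protein-coding genes the count among the 739 was 36 (4.87%), against 15.8% of all regions. Beyond 1000 bp of a start site, the mean summit fell in an intron in 365 regions (49.4%, against 42.1% of all regions), between genes in 297 (40.2% against 33.6%), in a coding exon in 8 (1.08% against 1.4%) and in another exon in 18 (2.44% against 2.81%). The median distance to a protein-coding start site was 21072 bp, against 16536 bp in other regions called in exactly 4 libraries and 13054 bp in all regions. Sites more than 100000 bp away were 19.1% of the 739 and 11% of all regions.

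**Figure D3:**
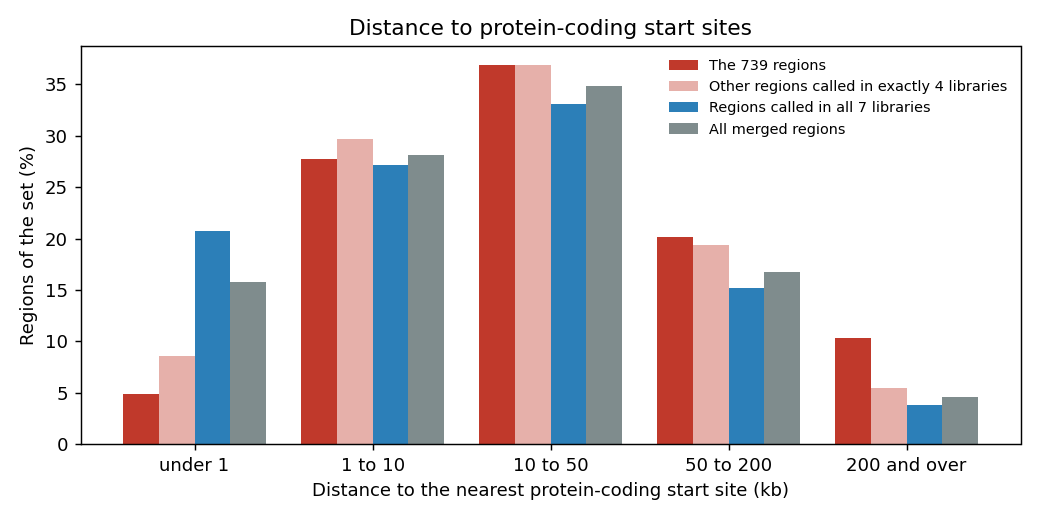
Share of regions by distance to the nearest protein-coding start site, for the 739 regions (red), other regions called in exactly 4 libraries (pink), regions called in all 7 (blue) and all merged regions (grey). Under 1 kb the shares are 4.87% of the 739 regions and 20.7% of the regions called in all 7; at 200 kb and over they are 10.3% and 3.8%.

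The nearest peak of any of the 3 libraries lay at a median of 3724 bp from the 739 regions. In 174 of them it was more than 10000 bp away, in 144 (19.5%) it lay within 1000 bp and in 59 within 250 bp. The same distance was not taken for other sets. One of the 59 lay 16756 bp from the start of Socs1, the gene of a cytokine signalling inhibitor. It reached 62 and 75 tags in WTAkita 3 and 4 and 60 and 52 tags in Ctrl 2 and 3, far above most of the 739, but its fold enrichment was only 3.05 and 3.25 in WTAkita and 2.22 and 2.72 in Ctrl, and a peak called in all 7 libraries began 13 bp away. The 739 regions were spread over all 19 autosomes, from 0.354% of the regions on chromosome 11 to 0.634% on chromosome 16.

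Base composition differed from that of the other sets, and least from the sets most like the 739 regions. Within 100 bases of the summit, on either side, the median GC content was 45.8% in the 739 regions, 48.8% in other regions called in exactly 4 libraries, 50.2% in all regions and 50.7% in those called in all 7. The reverse pattern lay on the other side, at 53.2%. Regions called in the 4 libraries and in 1 or 2 of the 3 had medians of 46.8% and 47.3%. A low GC content was thus largely shared by sites that some of the 3 libraries did call. Only 7 of the 739 regions (0.947%) had a GC content of at least 60%, against 17.4% of the reverse pattern and 11.2% of all regions. Their distance from promoters goes along with this, since regions near start sites are richer in GC, but the difference was there both near and far. Within 1000 bp of a start site the median was 47.8% in 51 of the 739 regions and 56.2% in all regions, and farther away it was 45.8% in 688 and 49.3% in all. No CG dinucleotide was found in this window in 156 of the 739 regions (21.1%), against 12.6% of all regions. At least 50% of the bases were repeats by the soft-masking of the genome in 152 (20.6%), against 16.3% of other regions called in exactly 4 libraries and 11% of all.

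The share of regions missed by the 3 libraries went down step by step with GC content. Site strength was not held fixed over GC. The mean fold enrichment in the 4 libraries had a median of 9 in regions called in all 7, against 3.56 in the 739 regions. Of the regions called in all of the 4 libraries, 1.83% belonged to the 739 where GC was under 40%, 1.18% at 40 to 45%, 0.797% at 45 to 50%, 0.435% at 50 to 55%, 0.196% at 55 to 60% and 0.043% at 60% and over. The same order over GC was seen in regions called in all 7 libraries. These regions also carry the enrichment by which the 3 libraries were set apart, so they are no independent check of its level. In the 105631 regions called in all 7 libraries, the log2 fold enrichment was compared with its mean in the 4 libraries. At a GC content under 40% the median of this difference was −0.51 in WTAkita 1, −0.26 in WTAkita 2 and −0.31 in Ctrl 1, and at 60% and over it was −0.21, −0.14 and −0.11. The 3 libraries were lower at all levels of GC, which goes with their choice, and lowest in AT-rich regions, in both groups. The medians of WTAkita 3, WTAkita 4, Ctrl 2 and Ctrl 3 stayed between −0.05 and 0.04 in every class. With regions near start sites left out, the 3 libraries had −0.52, −0.26 and −0.31 under 40% and −0.26, −0.18 and −0.12 at 60% and over, in the order WTAkita 1, WTAkita 2 and Ctrl 1. In 35.7% of the regions called in all 7, all of the 3 libraries were below all of the 4, and this share was 39.3% under 40% GC and 35.8% at 60% and over. The choice of the 3 libraries by enrichment favours such shares. The part of base composition in the missing calls was not tested.

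**Figure D4:**
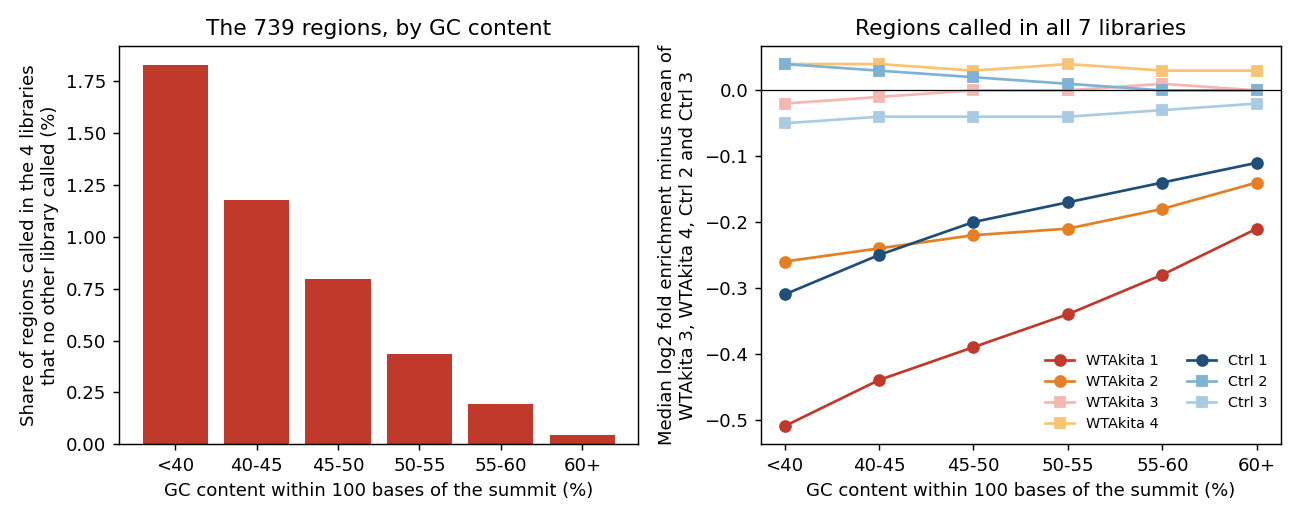
Left, share of the regions called in the 4 libraries that belong to the 739, by GC content within 100 bases of the summit; the share is 1.83% under 40% GC and 0.043% at 60% and over. Right, median log2 fold enrichment of each library minus the mean of the 4 libraries, over regions called in all 7; WTAkita 1, WTAkita 2 and Ctrl 1 (circles, dark) lie below 0 in every class and lowest at low GC, while the 4 libraries (squares, light) stay near 0.

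Motifs were searched in the same window on both strands, and one window may hold several of them. Short motifs follow base composition, so their shares are a description. RUNX letters (TGTGGT) were found in 29.1% of the 739 regions, against 25.1% of other regions called in exactly 4 libraries and 24.7% of all. GATA letters (AGATAA) were found in 11.5%, against 8.92% and 8.13%, and AP-1 letters (TGANTCA) in 10.3%, against 8.33% and 8.21%. RUNX1 and GATA2 are factors that blood stem cells need, and AP-1 factors open sites in response to signals. TATA-like letters (TATAAA), which AT-rich sequence holds often, were found in 12%, against 8.86% and 8.11%. PU.1 and other ETS letters (GAGGAA) were at 30.9%, against 31.9% and 32.6%, MEIS letters (TGACAG) at 15.2%, against 16.1% and 15.9%, C/EBP letters (TTGCNNAA) at 8.93%, against 8.2% and 8.07%, and HOX-PBX letters (TGATTTAT) at 0.947%, against 0.835% and 0.795%. These 4 differed little from the other sets. Shares lower than in all regions were found for motifs with a CG or a high GC content. The GC box (GGGCGG), found in many promoters, was in 2.57% of the 739 regions, against 6.14% and 11.4%, and the ETS letters CCGGAA were in 2.57%, against 2.88% and 4.82%. The E-box CAGCTG was in 10.8%, against 13.4% and 14%. The motif of CTCF, a protein that anchors chromatin loops, was in 2.71%. This was above the 1.36% of other regions called in exactly 4 libraries and below the 3.87% of all. In the 184 regions of the reverse pattern RUNX letters were in 17.4%, GATA letters in 3.8% and the GC box in 10.3%.

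Single regions show how these sites looked. The strongest of the 739 lay in an intron of Rsrc1, which encodes a splicing-related protein, at chr3:67073523-67074344. Its fold enrichment was 3.06 and 12.8 in WTAkita 3 and 4 and 9.87 and 10.5 in Ctrl 2 and 3, from 12 and 58 tags in WTAkita and 50 and 41 tags in Ctrl. WTAkita replicate 3 was thus far below the other 3 libraries that called it. It was the only one of the 739 with a mean percentile over 50 (54.6). The nearest peak of the 3 libraries was 87133 bp away, and 88.6% of the bases around its summit were soft-masked. The second lay between genes, at chr7:63335187-63335530, 109221 bp from the start of Otud7a, the gene of a deubiquitinase. It had 4.47 and 6.75 in WTAkita 3 and 4 and 5.42 and 6.97 in Ctrl 2 and 3, so the groups overlapped. The third, at chr16:87774416-87774743, was 75412 bp from Bach1, the gene of a heme-regulated repressor, with 5.65 and 6.53 in WTAkita and 5.03 and 5.48 in Ctrl. Here both WTAkita libraries were above both Ctrl libraries, by less than they differed from each other. The site near Mef2c, which encodes a transcription factor of lymphoid and myeloid progenitors, was 482798 bp from its start and had 4.95 and 5.23 in WTAkita and 5.23 and 6.47 in Ctrl. The 2 sites with the lowest GC content of the leading 10 lay in introns of Grm8 (26.4%), a glutamate receptor gene, and of Zfp644 (30.3%), a zinc finger gene. Grm8 had 5.18 and 5.44 in WTAkita and 6.58 and 4.98 in Ctrl, and no peak of the 3 libraries within 41515 bp. Zfp644 had 4.71 and 6.97 in WTAkita and 5.81 and 4.98 in Ctrl, with a peak of the 3 libraries 215 bp away. The rest of the leading 10 lay in introns of Rspry1, Ift57 and Cstf3 and between genes near Fmo9, with mean percentiles of 41 to 42.2.

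The 10 strongest of those near a protein-coding start site were weaker than these, with mean percentiles of 23.1 to 37.5. The highest was at chr14:78510751-78511079, 627 bp from the start of Akap11, which anchors protein kinase A. It had 6.36 and 5.23 in WTAkita 3 and 4 and 3.29 and 6.47 in Ctrl 2 and 3, so Ctrl replicate 2 stood below the others. The site 708 bp from Txnrd2, the mitochondrial thioredoxin reductase gene, had 3.77 and 4.14 in WTAkita and 4.26 and 3.49 in Ctrl. Others lay at Unc80, Tmem62, Olfr632, Acsl5, Usb1, Specc1 and B3galt1, and the site at Specc1 was the only one of the 10 to hold the start site itself. Apart from Specc1 (573 bp) and Usb1 (1616 bp), none of the 10 had a peak of the 3 libraries within 5000 bp.

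By nearest protein-coding start site, the 739 regions fell to 707 genes, of which 677 had 1 region, 28 had 2 and 2 had 3. The 2 genes with 3 were Dab2, an adaptor of endocytosis, and Gfra2, a receptor for neurturin. Of all merged regions, 40 were nearest to Dab2 and 50 to Gfra2. The 3 sites of Dab2 all lay between genes 363287 to 443158 bp from its start, with fold enrichments of 3.27 to 4.79 in WTAkita 3 and 4 and 3.1 to 5.23 in Ctrl 2 and 3. Of the 3 of Gfra2, one lay in an intron 7891 bp from the start and had 3.3 and 3.05 in WTAkita and 3.1 and 2.49 in Ctrl. Akap13, which anchors protein kinase A, had 2 sites in its introns. One had 4.47 and 5.88 in WTAkita and 5.03 and 4.73 in Ctrl, and the other is among those with the largest group difference. No gene thus gathered more than a few of these sites.

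Of the genes of blood stem cells, 6 of 36 listed transcription factors had a region among the 739 nearest to them, among them Erg, Meis1, Myc, Nfia and Runx1. They took 7 of the 739 regions (0.947%), against 0.88% of all regions. The site near Meis1, a HOX cofactor, was 375448 bp from its start, with 3.3 and 5.01 in WTAkita 3 and 4 and 3.29 and 4.73 in Ctrl 2 and 3. The site near Erg was 10897 bp from its start, with 3.48 and 3.7 in WTAkita and 3.31 and 5.21 in Ctrl. The groups overlapped at both. Among 35 surface receptors the count was 3 regions (0.406% against 0.391%), near Flt3, Itgb1 and Selp. The one in an intron of Flt3, the receptor of a growth factor for lymphoid-primed progenitors, was among the widest, with peaks of 523 and 490 bp in WTAkita and 395 and 528 bp in Ctrl and fold enrichments of 4.47 and 4.79 in WTAkita and 3.29 and 4.23 in Ctrl. Both lists thus took a share of the 739 regions near their share of all regions.

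Each list of lineage genes took few regions, at a share above its share of all regions, and counts this small are given as a description. The B lineage list had 4 (0.541%, against 0.0975% of all regions), near Blnk, Ebf1, Igll1 and Pax5. At Ebf1, which encodes a transcription factor of B cell commitment, the site lay in an intron and had 5.18 and 3.27 in WTAkita 3 and 4 and 5.42 and 3.73 in Ctrl 2 and 3. At Blnk, the adaptor of the B cell receptor, it had 2.59 and 2.61 in WTAkita and 4.06 and 4.48 in Ctrl. With 4 regions and 11 lists looked at, nothing is read from this share. T and NK lineage genes had 3 (0.406% against 0.186%), near Gata3, Gzmb and Prf1, and the sites near the cytotoxic granule genes Gzmb and Prf1 were 100% and 83.6% soft-masked. Erythroid and megakaryocyte genes had 2 (0.271% against 0.146%), 1 of them near Selp, and mature myeloid genes had 1 (0.135% against 0.0935%), near Mpo. No region fell to the list of bone marrow stroma and endothelium (0% against 0.217%), and 1 fell to the neuronal list (0.135% against 0.479%), in an intron of Rbfox1.

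The remaining lists follow themes of the study. DNA methylation and chromatin genes had 3 regions (0.406% against 0.237%), among them those near Asxl1 and Tet2. The site in an intron of Asxl1, a Polycomb-associated gene, had 4 and 3.92 in WTAkita 3 and 4 and 3.1 and 3.98 in Ctrl 2 and 3, and the site nearest to Tet2, a 5-methylcytosine oxidase gene, lay 329339 bp from it with 3.06 and 3.27 in WTAkita and 3.29 and 3.73 in Ctrl. Metabolism and oxidative stress genes had 4 (0.541% against 0.36%), near Cs, Hif1a, Prdx3 and Sesn3. The Hif1a site, 5994 bp from the start of this gene of the oxygen response, had 4.71 and 5.01 in WTAkita and 4.45 and 4.23 in Ctrl. The Sesn3 site went the other way, with 3.05 and 2.23 in WTAkita and 3.3 and 3.9 in Ctrl. In the group comparison given below, their log2 differences were 0.11 (SE 0.20) and −0.50 (SE 0.23). Inflammation genes had 2 (0.271% against 0.318%), near Il1b and Socs1. The site near Il1b, the cytokine interleukin-1β, was 16767 bp from its start and had 4.47 and 4.57 in WTAkita and 3.48 and 2.99 in Ctrl. In the same group comparison its log2 difference was 0.44 (SE 0.20), which did not pass the adjusted threshold. The nearest gene by distance need not be the gene a site acts on.

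The rule treats the groups alike within the 4 libraries, so WTAkita 3 and 4 could be compared with Ctrl 2 and 3. The log2 fold enrichment, quantile-normalized over all 115559 regions called in the 4 libraries, was tested with limma, two-sided, with Benjamini-Hochberg adjustment over all of them. No region passed an adjusted p of 0.05 (0 of 115559, 0%), and none of the 739 did, with a smallest adjusted p of 1. With 2 libraries a group, a p that misses the threshold does not show that the groups are alike. Only regions with a peak in all 4 libraries entered, so a site open in 1 group alone could not be tested. At weak sites the call threshold also limits how far 1 group can lie below the other. At an unadjusted p under 0.05 in limma, 18 of the 739 regions (2.44%) were higher in WTAkita, against 2.54% of all regions tested, and 23 (3.11%) were lower, against 2.34%. Both WTAkita libraries were above both Ctrl libraries in 114 (15.4%), against 16% of all regions, and below them in 127 (17.2%), against 16.5%. These shares are near those of all regions. The median difference was −0.01 on the log2 scale in the 739 regions. Its percentiles 25 and 75 were −0.17 and 0.15, while for all regions they were −0.11 and 0.11. The weaker regions were the noisier ones. The median SD within a group was 0.21 in the 739 regions and 0.14 in all, at a median summit pileup of 16.5 and 59.8 tags.

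**Figure D5:**
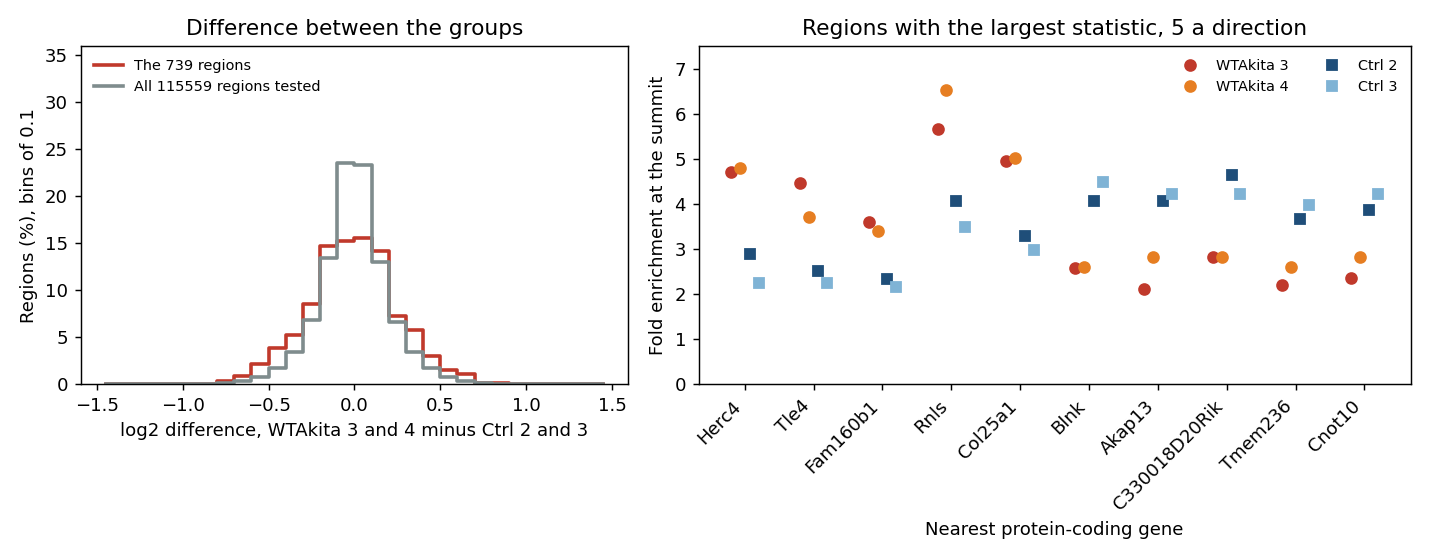
Left, log2 difference in fold enrichment, WTAkita 3 and 4 minus Ctrl 2 and 3, for the 739 regions (red) and all 115559 regions tested (grey), in bins of 0.1; the 739 are spread more widely around a median of −0.01. Right, fold enrichment in each of the 4 libraries (circles WTAkita, squares Ctrl) for 5 regions a direction, the largest by their moderated statistic among those whose groups do not overlap; none passed the adjusted threshold.

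The regions farthest from 0 in this comparison were few tags high. On the higher side, a site between genes 4074 bp from Herc4, a ubiquitin ligase gene, had 19 and 21 tags in WTAkita 3 and 4 and 14 and 8 tags in Ctrl 2 and 3. Its fold enrichment was 4.71 and 4.79 in WTAkita and 2.9 and 2.24 in Ctrl, a difference of 0.86 (SE 0.21, adjusted p = 1 in limma). A site 419488 bp from Tle4, which encodes a Groucho-type corepressor, had 4.47 and 3.7 in WTAkita and 2.52 and 2.24 in Ctrl, a difference of 0.74. The next were near Fam160b1 and in introns of Rnls and Col25a1, at 0.61 to 0.65. On the lower side, the intron site of Blnk had 10 and 11 tags in WTAkita and 20 and 17 in Ctrl, a difference of −0.76 (SE 0.20, adjusted p = 1 in limma). The second intron site of Akap13 had 2.12 and 2.83 in WTAkita and 4.06 and 4.23 in Ctrl, a difference of −0.79. The sites near C330018D20Rik and in introns of Tmem236 and Cnot10 lay at −0.68 to −0.69. These 10 were picked as the extremes of 739, and none passed the test over all regions.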

How the data were processed

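ATAC-Seq was done on LSK cells of 4 WTAkita and 3 Ctrl libraries. Per the labels and the study's methods, the authors trimmed reads (Trim Galore 0.4.2, cutadapt 1.9.1), aligned them to mm10 (Bowtie2 2.3.4.1), took out duplicate reads and ran MACS2 on every library by itself at a p-value of 0.01, with cut sites extended to 150 bp and without a control. The submitters' processing notes give MACS2 as version 2.1.4. Fold enrichment as deposited is a ratio, set within each library. The −log10 p and q values, also as deposited, rise with depth. The score column the authors deposited played no part.

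Lines with the same start and end were taken as 1 peak, with the highest fold enrichment. Summit pileups were solved from fold enrichment and −log10 p as deposited, and were whole within 0.02 for 100.00% of peaks. Tags were estimated from the most frequent background and the mouse genome size MACS2 uses. Precision rests on those pileups. Start sites and places came from GENCODE for mm10, sequence from RefSeq GRCm38.p6. Groups were compared with limma 3.58.1 (trend, no pseudocount) in R 4.3.3, checked on simulated data, and the rest was done with Python 3.11.15, pandas 2.3.3 and scipy 1.17.1. The members, lists and tests were chosen with earlier results of these data known. Named were the 10 strongest regions, the 10 strongest within 1000 bp of a protein-coding start, 2 per list of 11, 5 per direction of the comparison, the genes with most regions (those with 3 and Akap13 are described) and the values next to the threshold. Pax5, Igll1 and other list genes are named as counts of their list, and some named regions are not reported here. Alternatives covered peak joining, overlap, p, q, width, windows, normalization and each library in turn. Libraries were counted once each, and none was left out.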

Additional observations from a re-analysis of the deposited data

How the results depend on the processing

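The number of regions, 739 as reported, was 680 to 887 under the other settings for joining, overlap, p, q and a margin of 250 bp. With 1 library in turn not asked, it was 1253, 1760, 1104 and 1153 without WTAkita replicates 1 to 4 and 1706, 1243 and 1420 without Ctrl replicates 1 to 3, so a range of 1104 to 1760; fewer conditions give more regions by construction. The share within 1000 bp of a start site was 6.97% to 8.68% over these 7 settings, 27.2% for a window of 5000 bp and 4.87% for protein-coding start sites alone. The median fold enrichment, 3.56 as reported, was 3.46 to 3.65 with 1 library not asked and 3.77 at a −log10 q of at least 2. With peaks of at least 300 bp, a setting chosen after seeing the data, it was 4.52 over 582 regions.

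In the group comparison the count of regions past the adjusted threshold stayed at 0, except 13 of 115559 with the value of the peak sharing most bases, none of them among the 739. It was 0 without each of the 4 libraries in turn, where the lone library of a group is assumed to vary like the others, and the median difference of the 739 regions was then −0.054 (without Ctrl replicate 2) to 0.036 (without Ctrl replicate 3). At an unadjusted p under 0.05 in limma, 41 of the 739 regions became 17 with summit pileups, 74 without trend and 24 without WTAkita replicate 3. Over all regions, 2940 higher and 2708 lower became 1868 and 1690 with summit pileups. The causes were not tested. No paired analysis was possible because the 4 libraries compared share only the replicate number 3. Depth limits each of these values, at a median of 15 to 19 tags a summit in the 739 regions.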

Other observations

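The X chromosome was left out of the 739 regions. Of its 3997 merged regions, 24 (0.6%) had the same calls, a peak in WTAkita 3 and 4 and Ctrl 2 and 3 and none in the 3 other libraries, against 0.429% on the autosomes.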
